A study of Caenorhabditis elegans with 4 samples.

Results

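The X chromosome of Caenorhabditis elegans held 410 of the 3766 peaks in a combined list of binding sites for a GFP-tagged homeodomain transcription factor. The members are all rows of that list that lie on X, with X rows of the replicate lists that overlap them by at least 1 bp taken as support. Replicate 1 listed 290 X peaks among its 2778 and replicate 2 listed 84 among its 906. The data are peak calls from chromatin immunoprecipitation with sequencing (ChIP-seq). Whole hermaphrodites at the fourth larval stage (L4), grown at 20 °C, were fixed with 2% formaldehyde, and sonicated chromatin was collected with an antibody against EGFP.

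The labels name 2 ChIP samples and 2 input samples, input being total DNA kept from the lysates as control. All 4 are of strain OP241, in which the allele unc119(ed3) is joined with the transgene wgIs241, ceh-38 fused to TY1, EGFP and FLAG tags together with an unc119 gene, introduced by bombardment and outcrossed 3 times. No mutation of the animals' own ceh-38 is listed. The titles name another factor, CEH-28, and the antibody stands in the descriptions of the input samples instead of the ChIP samples, and the protein is called the tagged factor here. The design text states its purpose as locating the sites that ceh-38's protein occupies in the living worm. Only the ChIP samples have peak lists here, so no X value of the input could be set beside them. Nothing says whether the replicates came from separate cultures.

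CEH-38 belongs to the ONECUT proteins, which join a cut domain to a homeodomain, and CEH-28 to the NK-2 homeodomain class. X has a regulation of its own in this species. In hermaphrodites, a condensin-like dosage compensation complex binds both X chromosomes and lowers their transcription, and in the germ line X is largely silent. An ONECUT relative, CEH-39, acts as an X signal element, a factor whose dose reports the number of X chromosomes by repressing the sex-determination switch gene xol-1. In the RefSeq gene table of assembly WBcel235, ceh-28, ceh-39, ceh-41, ceh-21 and xol-1 lie on X, whereas ceh-38 lies on II. The peaks are on WormBase build WS180 and no annotation of that build was used, so the regions are given by position, without genes or sequence.

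The authors' caller, PeakSeq, gave every peak a q-value, which is its p-value against the control after correction for multiple testing. It is written as q or as −log10 q, which is larger for a surer region. Because q falls with sequencing depth as well as with enrichment, and depth is unknown, it is not a measure of binding strength that can be compared between lists; where values of several lists stand side by side, they describe the lists. X peaks covered 238 kb in the combined list, 172.3 kb in replicate 1 and 52 kb in replicate 2. X took 10.9% of the combined-list peaks (95% Wilson interval 9.93 to 11.9%), 10.4% of those of replicate 1 and 9.27% of those of replicate 2. Intervals cover counting error over peaks only and treat peaks as independent.

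The 20 best X regions were chosen among peaks found in both replicates, which fixed their presence in all 3 lists. Without that condition the same 20 lead the combined list on X. How the combined list was made is not stated, so its places are not known to be independent of those in the replicates. Most of the 20 regions held similar places on X in each list. The leading one, at X:8035570-8037064, had q = 6.56e-178 in the combined list, 2.39e-139 in replicate 1 and 6.95e-73 in replicate 2. It was the best X peak of each list, at place 46, 45 and 48 over all chromosomes. The second, at X:11093577-11094639, had q = 2.29e-129, with 1.29e-104 in replicate 1 and 8.76e-43 in replicate 2, and was also second on X in both replicates. Places 3 to 5 changed order between lists but stayed within the 6 best X peaks of each replicate. X:83985-85032, close to the left end of the chromosome, had q = 3.42e-109, 7.06e-81 in replicate 1 and 4.13e-34 in replicate 2. X:12362531-12363740 had q = 1.78e-107, 1.97e-76 in replicate 1 and 1.71e-37 in replicate 2. X:4208393-4209912 had q = 1.69e-103, with 8.27e-83 and 1.40e-41 in the replicates. Its place among the X peaks of both replicates was 3, above its place of 5 in the combined list.

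The next 5 regions lay on both sides of the chromosome's middle. X:11937051-11937781 had q = 1.94e-97 in the combined list and was 731 bp wide. X:2996314-2997616 had q = 5.28e-87 and X:14525424-14526404 had q = 1.16e-77. The place of each on X differed by at most 3 between lists. X:16929334-16931774 (q = 9.90e-80) was wide, at 2441 bp, and stood lower in replicate 1, at place 15 on X, than in replicate 2, at place 7. X:6296101-6297033 (q = 3.17e-75) was at place 11 and 8 on X in replicates 1 and 2.

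Places 11 to 20 ran from q = 9.25e-74 to 2.38e-41. X:16611006-16613461 was the widest of the 20 at 2456 bp, and X:1626877-1627490 the narrowest at 614 bp. The others, in falling order of −log10 q, were X:9465367-9466234, X:16681599-16682541, X:10567976-10569313, X:5428909-5429956, X:271529-272178, X:13143882-13145822, X:11605011-11607009 and X:7822349-7823684. X:271529-272178 differed most between the replicates in place, at 18 on X in replicate 1 and 29 in replicate 2, with −log10 q of 34.7 and 7.55. Of the 20 regions, 19 were among the 20 best X peaks of replicate 1 and 18 among the 20 best of replicate 2. They spread over 15 of the 18 bins of 1 Mb along X. In all 20, −log10 q was highest in the combined list and higher in replicate 1 than in replicate 2.

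**Figure D1:**
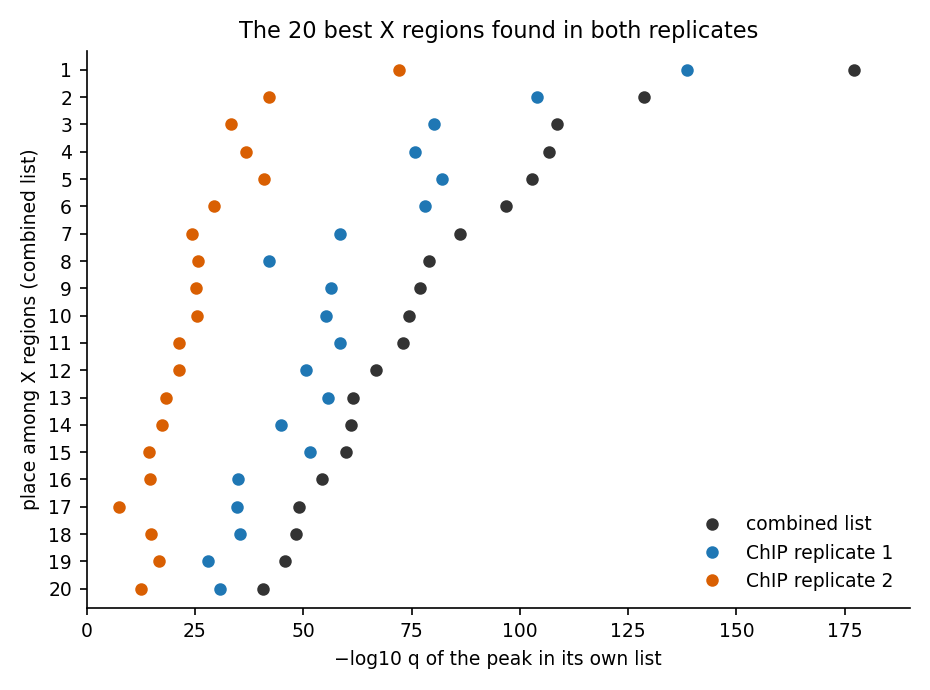
The 20 X regions with the smallest combined-list q among those found in both replicates (vertical axis, place by combined list) and their −log10 q in each list (horizontal axis). Combined-list values run from 40.6 to 177, replicate 1 values from 28 to 139 and replicate 2 values from 7.55 to 72.2.

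The share of X was lower among the best peaks than in the whole list. X gave 1 of the 50 best combined-list peaks (2%, 95% Wilson interval 0.354 to 10.5%) and 5 of the 100 best (5%, 2.15 to 11.2%). It gave 14 of the 200 best (7%, 4.22 to 11.4%) and 28 of the 400 best (7%, 4.89 to 9.93%). Among the 900 best it gave 83 (9.22%, 7.50 to 11.3%). Replicate 1 had 1 X peak among its 50 best, 13 among its 200 best, 30 among its 400 best and 85 among its 900 best. Replicate 2 had 1, 12 and 25 among its 50, 200 and 400 best, out of 84 on X in its 906 peaks. Each list was also divided by rank into 4 classes of equal size, class 1 having the smallest q-values. X peaks made up 9.46% of rank class 1 of the combined list, 10.6% of class 2, 11.2% of class 3 and 12.3% of class 4. Neither replicate rose steadily: the shares in classes 1 to 4 were 8.36%, 11.7%, 10.1% and 11.7% in replicate 1 and 6.64%, 7.49%, 13.3% and 9.69% in replicate 2. The X intervals of classes 1 and 4 of the combined list, 7.75 to 11.5% and 10.4 to 14.6%, overlap. The pattern was not particular to X. In the combined list V took 12.2% of class 1 and 20.0% of class 4, and II 10.9% and 12.6%. I, with 25.7% and 17.3%, and III, with 24.9% and 21.7%, went the other way. IV changed little, with 16.8% and 16.1%. For X in the combined list, the intervals of the 100, 200 and 900 best include the whole-list 10.9%, and those of the 50 and 400 best do not. At the 400 best, the interval of replicate 1 (5.30 to 10.5%) includes that list's 10.4%. That of replicate 2 (4.27 to 9.06%) lies below its 9.27%. These sets are nested, so they are not separate results.

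On X as on the autosomes, most peaks of the shorter replicate list overlapped the longer one, the autosomes ranging from 92.1% on I to 99.1% on V. Of the 84 replicate 2 peaks, 83 overlapped a replicate 1 peak (98.8%, 93.6 to 99.8%, against 94.7% of the replicate 2 peaks of all chromosomes), and 83 overlapped a combined-list peak, against 95.3% over all chromosomes. The exception was the same in both comparisons, X:16147037-16147450, which was the weakest X peak of replicate 2 (q = 2.68e-04). From the longer list's side, 80 of the 290 replicate 1 peaks overlapped replicate 2 (27.6%, 22.8 to 33.0%, against 29.6% over all chromosomes). The corresponding autosomal share was 741 of 2488 (29.8%). X minus autosomes was -2.20 percentage points (95% interval -7.36 to 3.50), a difference that did not pass a two-sided Fisher's exact test over peaks (p = 0.455, adjusted over 3 tests p = 0.455). A replicate 1 peak with no partner was not detected in replicate 2 at an unknown depth, which does not make it unbound.

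The matched X peaks kept their order of q-values, on a smaller scale in replicate 2. For the 77 X peaks that overlapped one to one, −log10 q in the 2 lists gave a Spearman's rho of 0.856 and a Pearson's r of 0.966. These are descriptions across peaks of 1 pair of libraries, and Pearson's r is carried in part by a few very strong regions. Replicate 2 had a median −log10 q of 6.69 at these peaks, against 16.3 for replicate 1. Replicate 2 divided by replicate 1 gave a median of 0.43 (quartiles 0.362 and 0.548) on X, against 0.392 (0.323 and 0.477) over 703 autosomal pairs. The medians of single autosomes ran from 0.337 on I to 0.424 on V, with III (0.412) and IV (0.421) also close to X. Replicate 2 had the larger −log10 q in 1 of the 77 X pairs. Centres of matched peaks lay a median of 60 bp apart (quartiles 31 and 100 bp), and 58 of the 77 lay within 100 bp of each other. Replicate 2 called the narrower peak in most pairs, with a median width of 495 bp in replicate 2 against 731 bp in replicate 1, and was the wider in 8 of 77.

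**Figure D2:**
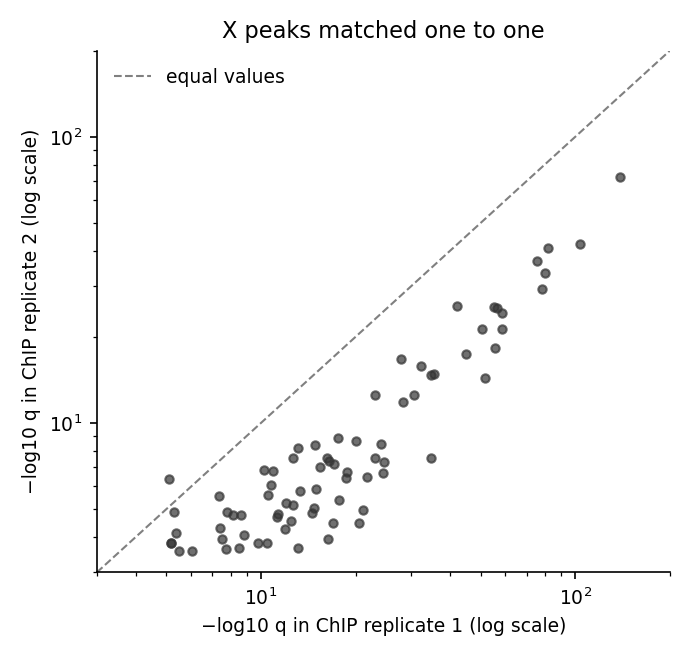
Each point is 1 of the 77 X peaks matched one to one, with −log10 q in replicate 1 (horizontal, log scale) and replicate 2 (vertical, log scale). All but 1 of the points lie below the dashed line of equal values, and the point at the upper right is the region at X:8035570-8037064.

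Support in the replicates divided the combined-list X peaks, like those of the autosomes, into a stronger, wider set and weaker ones. In both replicates, 80 of the 410 were found (19.5%, 16.0 to 23.6%), against 21.2% of the combined-list peaks of all chromosomes. A further 186 overlapped replicate 1 only (45.4%, against 45.6% over all chromosomes) and 144 overlapped neither (35.1%, against 32.9%). None overlapped replicate 2 only (0%, interval up to 0.928%), against 0.345% over all chromosomes and 0 of 604 on V. On the autosomes, 718 of 3356 were found in both (21.4%). X minus autosomes was -1.88 percentage points (95% interval -5.70 to 2.45), which did not pass a two-sided Fisher's exact test over peaks (p = 0.406, adjusted over 3 tests p = 0.455).

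The X peaks of these classes differed in q and in width. Those found in both replicates had a median −log10 q of 22.1 (quartiles 15.5 and 40.4) and a median width of 802.5 bp. Those in replicate 1 only had 6.61 (4.94 and 9.52) and 490 bp, and those in neither 4.17 (3.65 and 4.78) and 307 bp. The order was the same on the autosomes, with median −log10 q of 29.8, 7.05 and 4.22. Among peaks found in both replicates X had the lowest median of the 6 chromosomes, the autosomes ranging from 23.2 on IV to 40.7 on I. How the combined list was made is not stated, so these medians are given as a description, with no test. The weakest X peak found in both was X:8995407-8995710 (q = 4.21e-08), and 77 of the 80 had a larger −log10 q in the combined list than in either replicate.

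Support followed the place in the list on X as on the autosomes. In rank class 1 of the combined list, 68 of the 89 X peaks were found in both replicates (76.4%, 66.6 to 84.0%), against 75% of the autosomal ones (72.0 to 77.8%). In class 2 it was 12 of 100 X peaks (12%, 7 to 19.8%), against 8.67% (6.95 to 10.8%). In class 3 it was 0 of 105 X peaks, against 6 of 836 autosomal ones (0.718%), and in class 4 it was 0 of 116 X peaks, against 0 of 826. In rank class 1 of replicate 1, 54 of 58 X peaks were found in replicate 2 (93.1%, 83.6 to 97.3%), against 88.7% of the autosomal ones (86.0 to 90.9%). In each of these classes the intervals of X and the autosomes overlap.

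**Figure D3:**
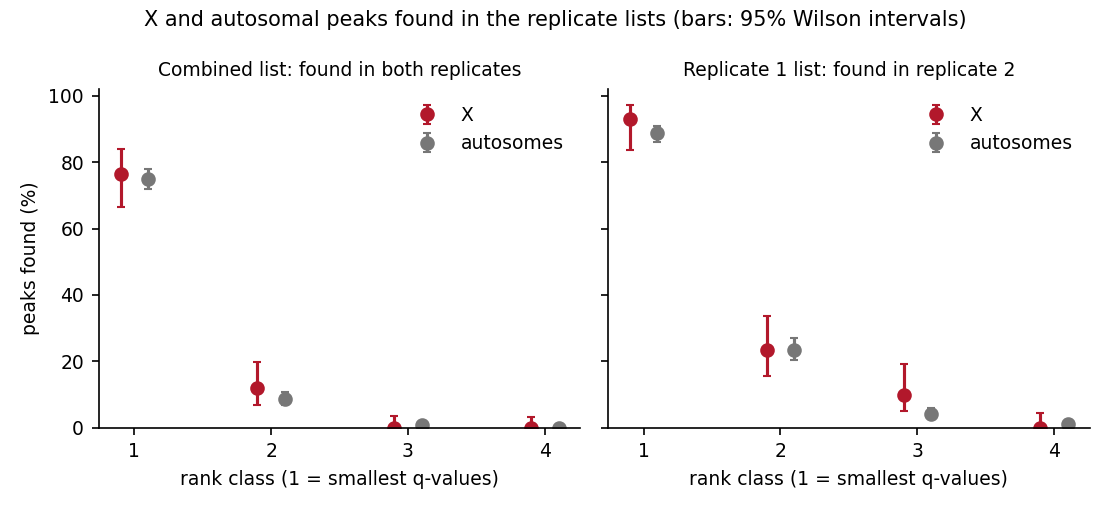
Share of peaks found in both replicates (left, combined list) or in replicate 2 (right, replicate 1 list), with 95% Wilson intervals, for X and the autosomes in each rank class of the list. The X shares fall with the autosomal ones, being 76.4% in class 1 and 0% in class 4 of the combined list.

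The best X peaks without support from both replicates stood lower in the list. The best combined-list peak with a partner in replicate 1 only was X:9999180-10000231 (q = 2.15e-24, and 2.23e-15 in replicate 1), followed by X:16205491-16206257 (q = 5.91e-24, and 1.81e-18). X:4521104-4522525 (q = 4.58e-21), X:10677487-10678738 (q = 7.36e-19) and X:7960691-7962832 (q = 6.68e-16) came next. All 5 stood at places 37 to 66 on X, below the 20 best. The best X peak of the combined list without a partner in either replicate, X:6034214-6034610, had q = 7.06e-09 and place 144 on X. X:6551055-6551996 (q = 1.06e-08), X:13686999-13687586 (q = 2.22e-08), X:16145076-16145550 (q = 2.42e-08) and X:6097490-6098299 (q = 2.74e-08) followed. In the other direction, 267 of the 290 replicate 1 X peaks were in the combined list (92.1%, against 92% over all chromosomes). The best of the 23 that were not, X:10900868-10901334, had q = 5.35e-06 and place 175 among the replicate 1 peaks on X.

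X peaks were wide for their place in the list, most clearly among the weaker ones. The median combined-list width on X was 445.5 bp (quartiles 300.5 and 707 bp), against 329 bp (218 and 551 bp) on the autosomes together and 287 to 380 bp on each. Among peaks found in both replicates the medians were close, at 802.5 bp on X and 819 bp on the autosomes. They were 490 bp on X against 326 bp for peaks in replicate 1 only, and 307 bp against 223.5 bp for peaks in neither. X thus held the highest median of the 6 chromosomes among the weaker classes, but among the peaks found in both it stood below I with 923 bp and II with 847 bp.

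At matched places the same was seen. In rank class 2 of the combined list the median was 546 bp on X and 327 to 499 bp on the 5 autosomes. In class 3 it was 368 bp on X and 225 to 292 bp on the autosomes, and in class 4 it was 285 bp on X and 158 to 245 bp. In class 1 X had 878 bp and the autosomes 742 to 839 bp. In replicate 1, X was again the widest in class 2 (550 bp, against 325.5 to 484.5 bp), class 3 (364.5 bp, against 232 to 329 bp) and class 4 (300 bp, against 175 to 262 bp), whereas in class 1 X with 842 bp lay below II with 951.5 bp. In replicate 2, X was the widest in class 2 (665 bp over 17 peaks, against 486.5 to 651 bp) and class 4 (413 bp over 22 peaks, against 227 to 307.5 bp), lay below II in class 3 (418 bp, against 516 bp) and was the narrowest in class 1 (967 bp over 15 peaks, against 1061.5 to 1389.5 bp). Widths were set side by side over 6 chromosomes without a test, and the depth behind them is unknown.

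**Figure D4:**
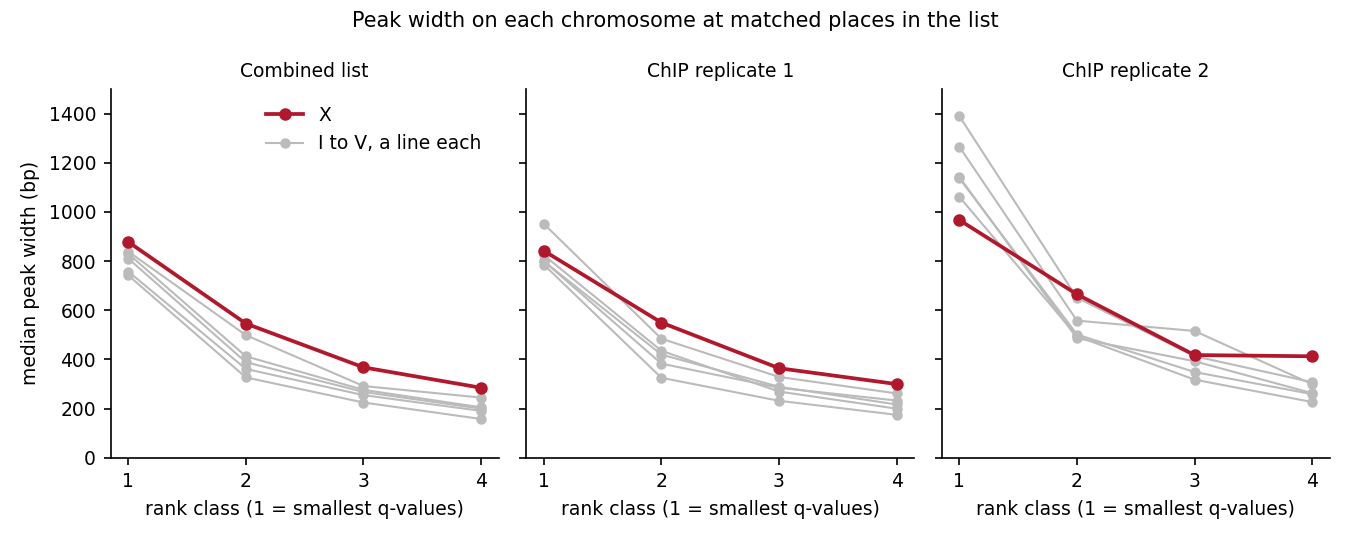
Median peak width (vertical, bp) in each rank class of a list (1 has the smallest q-values), for X (red) and chromosomes I to V (grey, a line each) in the 3 lists. In the combined list X is on top in every class, with 878 bp in class 1 and 285 bp in class 4, and in class 1 of replicate 2 it is at the bottom with 967 bp.

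Peaks under 50 bp were few on X, and as few on II in replicate 1. In the combined list they were 2 of 410 peaks on X and 4 of 431 on II, against 82 of 3766 over all chromosomes. In replicate 1 they were 1 of 290 on X, 1 of 305 on II and 2 of 424 on V, against 22 of 2778. The 1 such peak of replicate 2 lay on V. These counts are too small to set X apart. The widest combined-list X peak, X:8016631-8020552 (3922 bp, q = 5.80e-21), lay next to the second widest, X:8020871-8023664 (2794 bp, q = 2.41e-14). Replicate 1 listed these 2 as a single peak of 7051 bp, X:8016623-8023673 (q = 6.13e-27), and replicate 2 listed 2 peaks inside the first of them, the better being X:8019397-8020154 (q = 1.89e-07). The other wide regions were X:16611006-16613461, X:16929334-16931774 and X:7960691-7962832, of 2456, 2441 and 2142 bp. The first and second of these are among the 20 best X regions and the third was found in replicate 1 only. Such splitting was uncommon: 2 replicate 1 X peaks were split in the combined list, and 3 combined-list X peaks were split in replicate 1.

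Peaks were listed along the whole of X. The first combined-list peak began at base 10785 and the last ended at base 17610587, taken as the end of the chromosome because no WS180 chromosome length was used. No bin of 1 Mb was empty in any list. The 17 complete bins held a median of 21 combined-list peaks, with 15 to 37 per bin, a median of 17 in replicate 1 (10 to 25) and a median of 5 in replicate 2 (1 to 9). The fullest bin of the combined list ran from 1 to 2 Mb with 37 peaks (9.02% of those on X), followed by 14 to 15 Mb with 31, 4 to 5 Mb with 27, and 8 to 9 Mb with 26. The bins from 0 to 1 Mb and from 13 to 14 Mb held 25 each. The bin from 1 to 2 Mb was also the fullest of replicate 1, with 25 peaks, but in replicate 2 it held 7 and the fullest was from 15 to 16 Mb with 9. Peaks found in both replicates were most frequent from 11 to 12 Mb, with 8 peaks, where the combined list held 21.

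The X peaks found in both replicates were not gathered at the chromosome ends to the extent seen on the autosomes. Of the 80 X peaks found in both replicates, 46 had their centre in the outer 25% at either end (57.5%, 46.6 to 67.7%), against 520 of 718 on the autosomes (72.4%). X minus autosomes was -14.9 percentage points (95% interval -26.3 to -4.14; two-sided Fisher's exact test over peaks, p = 0.00896, adjusted over 3 tests p = 0.0269). X had the lowest share of the 6 chromosomes, the autosomes ranging from 68.4% on III to 77% on I. With peaks under 5 kb apart joined into regions, the difference was -9.79 points and did not pass the exact test (p = 0.0936). The comparison was chosen with the positions known, and neighbouring peaks are not independent, so its p-values are too small.

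For the peaks found in neither replicate, the X share lay inside the range of the autosomes. Of those on X, 82 of 144 lay in the outer parts (56.9%, 48.8 to 64.7%), within the range of 46.8% on IV to 61.5% on I. On X the shares of peaks found in both replicates and in neither were close, at 57.5% and 56.9%. For X peaks in replicate 1 only it was 53.8% (46.6 to 60.8%). On each of the 5 autosomes the share was higher among peaks found in both replicates than among those in neither. Of the 20 best X regions, 9 lay in the outer parts and 11 in the middle.

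**Figure D5:**
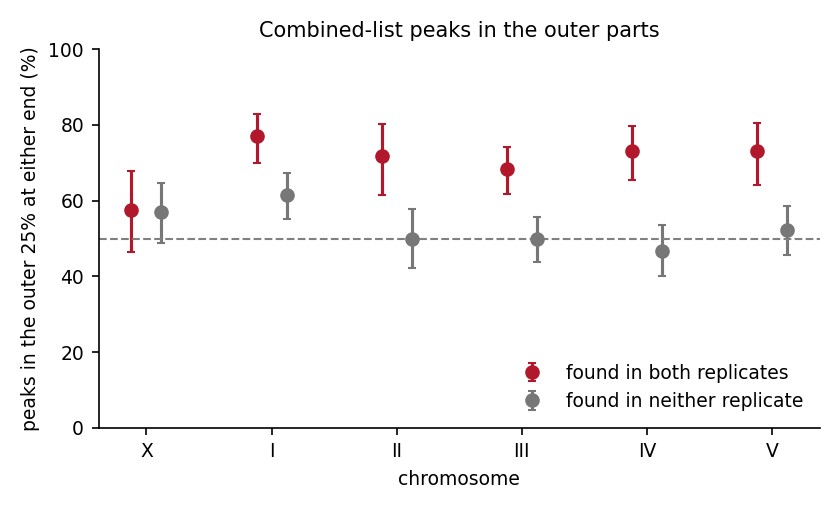
Share of combined-list peaks with their centre in the outer 25% of a chromosome at either end, with 95% Wilson intervals, for peaks found in both replicates (red) and in neither (grey). The dashed line marks 50%. The red points are at 57.5% on X and at 68.4 to 77% on I to V, and on X the red and grey points nearly coincide.

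X peaks stood far apart. The median distance between neighbouring peaks on X was 25.4 kb in the combined list, against 7.14 to 14.8 kb on the autosomes. In replicate 1 it was 35.8 kb, against 9.37 to 25.7 kb, and in replicate 2 122 kb, against 21.1 to 72.6 kb. X also had the fewest peaks per Mb, 23.3 in the combined list, with II (28.2) and V (29.0) nearest and III (68.5) highest. Of its combined-list peaks, 141 had another within 5 kb (34.4%, 30 to 39.1%), the lowest share of the 6 chromosomes, the autosomes ranging from 47.3% on II to 63.3% on III. In replicate 1 it was 25.9% on X, against 34.4 to 57.4%, and in replicate 2 16.7%, against 23.7 to 45.5%. A sparser chromosome has fewer neighbours within a fixed distance, and the part of that in these shares was not tested. The longest stretch without a combined-list peak ran from 13226960 to 13513245 (286 kb). In replicate 1 it ran from 11095740 to 11451629 (356 kb) and in replicate 2 from 6742449 to 7793554 (1051 kb).

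Joining peaks under 5 kb apart left 329 X regions, 269 of them single peaks, 60 with at least 2 and 17 with at least 3. The largest group, X:8014240-8029761, had 5 peaks over 15.5 kb, 1 found in both replicates and 4 in replicate 1 only. Their median width was 1864 bp. It contained the 2 widest X peaks and ended 5.81 kb before the best X region. Groups of 4 lay at X:1443425-1454795 (best q = 3.74e-20) and X:14970094-14983518 (best q = 2.72e-10), the second of them with all 4 peaks in replicate 1 only. Among groups of 3, the best by q were X:83985-90997, which holds the third best X region, and X:1339106-1345351 (best q = 2.01e-28). Of these 5 groups, 1 held any of the 20 best X regions.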

How the data were processed

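The authors deposited 3 peak lists, of ChIP replicate 1, ChIP replicate 2 and a combined list; no label or header says how it was made from them. Per the file headers, they are on WormBase build WS180, and per the source column the peaks were called with PeakSeq. The deposited value per peak is a q-value (p-value after correction), given as it stands in the score field. Aligner, filters, q limit and caller version were not given in the sources used here. Depth is unknown, since no reads are counted in the lists. The choice of X, the comparisons and the rules for the regions named (the 20 best X peaks found in both replicates, the 5 widest, best partly supported, fullest bins and largest groups) was made with earlier results of these data known. From the lists, −log10 q, ranks, 1 bp overlaps, widths and distances were computed in Python 3.11.15 (numpy 2.4.6, pandas 2.3.3, scipy 1.17.1, matplotlib 3.10.9). X was compared with the autosomes by 3 two-sided Fisher's exact tests with Benjamini-Hochberg adjustment. Peaks are their units, so they say nothing of the spread between cultures. Intervals of differences are Newcombe's. The overlap and joining steps were tested on simulated lists. Alternatives were other overlap rules, joined peaks, better parts of the lists and single replicates.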

Additional observations from a re-analysis of the deposited data

How the results depend on the processing

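The comparison of outer parts and its alternatives were chosen after seeing the data. Of 17 alternatives to tested results, 14 kept their direction and their side of the threshold of 0.05. The difference in support by both replicates changed sign in the upper 50% of the combined list by q-value, at 0.297 percentage points (Fisher's exact test, p = 0.938), both values lying near 0. The difference in outer parts no longer passed the exact test with the outer 20% (-11.6 points, p = 0.0548) or with neighbouring peaks joined (-9.79 points, 57.9% on X against 67.7%, p = 0.0936); the cause was not tested. It was -16.2 points in the whole list of replicate 2 and -18.8 in the 798 best peaks of replicate 1, 72 of its 290 on X. The difference in support was -2.27 to -2.14 points with overlap of a single replicate required.

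Among 21 untested alternatives, 13 moved the value. The upper 50% of the combined list held 189 X peaks and a single replicate 84 to 290. The median X width was 802.5 bp in peaks found in both replicates, 679 bp in the upper 50% and 467.5 to 490.5 bp in single replicates. The share with a neighbour was 21% within 2 kb, 46.8% within 10 kb and 16.7 to 25.9% in single replicates. X held 13% of the bases covered, 13.3% of joined regions and 9.27 to 10.4% of the peaks of single replicates. The fullest bin held 8.62 to 10.7% in single replicates. No paired analysis was possible because only the ChIP samples have peak lists here, so no input value carries the same replicate number. Unknown depth limits every statement on peaks found in 1 list only.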
